A study of Mus musculus with 2 samples.

Results

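The Bcl2 family was examined as 10 of the 32285 genes in the count matrices of GR1+ cells from 4T1 mammary tumors, together with the class of cell each transcript came from. The survival members were the paralogs Bcl2a1a, Bcl2a1b and Bcl2a1d (A1 or BFL1 in the protein literature), Mcl1, Bcl2l1 (BCL-XL) and Bcl2. The death members were the BH3-only genes Bcl2l11 (BIM) and Pmaip1 (NOXA) and the effectors Bax and Bak1. The members were selected on measured values of these same libraries, their levels by class and the ratio of Bcl2a1a between the libraries among them, so all levels and ratios are given as a description and none was tested.

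4T1 is a mammary carcinoma line of BALB/c mice, and the antibody to GR1 binds Ly6G and Ly6C, surface proteins of neutrophils and monocytes. The study compared parental tumors (4T1P), which do not respond to antibodies against PD1, with tumors of a multiclonal line derived by mutagenesis with MNNG (4T1M), which do respond. Both groups were BALB/c mice labelled as 6 to 8 weeks old, and the series' design text gives 5 mice pooled for each library, while a figure legend of the study gives another number. No treatment was named for either library. GR1+ cells were taken from dissociated tumors with magnetic beads and sequenced on the 10x Genomics system, in which a unique molecular identifier (UMI) marks each captured transcript.

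With 1 library per group there was no replicate, and no difference between 4T1P and 4T1M was tested. The intervals below are 95% intervals, exact Poisson for levels, exact conditional binomial for ratios and Clopper-Pearson for shares of cells. They cover counting error only and leave out the variation between mice, tumors and sorts. Those for levels, ratios and shares of UMIs take each UMI as independent, so they also leave out the variation between cells.

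The 2 matrices held 2947 (4T1P) and 5004 (4T1M) barcodes with 21855657 and 24303957 UMIs, and 5 barcodes occurred in both. Barcodes with 500 to 5000 genes and at most 10% mitochondrial UMIs were retained, which left 1726 and 3461. Neutrophils were retained barcodes with at least 1.5% of UMIs in S100a8 and S100a9 and under 0.5% in C1qa, C1qb, C1qc and Apoe, and macrophages were barcodes under that S100 limit with at least 0.3% in the C1q genes, Apoe, Csf1r, Cd68 and Fn1. This gave 612 and 1686 neutrophils with 2502947 and 6580005 UMIs, and 798 and 976 macrophages with 8767210 and 9343315 UMIs. Median depth per cell was 3054.5 and 2957.5 UMIs in neutrophils and 9727 and 9213.5 in macrophages. A level is given as UMIs of the gene per 1000000 UMIs of the class (CPM), and since UMIs count transcript ends it was not divided by gene length.

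The markers that did not enter the rule followed the class names. Csf3r, the receptor for granulocyte colony-stimulating factor, stood at 712 and 846 CPM in the neutrophils of 4T1P and 4T1M against 30.2 and 55.1 CPM in macrophages. Adgre1 (F4/80) stood at 107 and 102 CPM in macrophages against 2.40 and 4.71 CPM in neutrophils. Most retained barcodes were myeloid by these classes, as the label of the sorted cells gives, and whether they carried GR1 was not examined. Also present were 73 and 91 T or NK cells and 31 and 26 B cells, and 201 and 629 retained barcodes were in no class. Monocytes were not separated from macrophages by this rule.

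Proteins of this family meet at the outer mitochondrial membrane. The survival proteins hold BAX, BAK and the BH3-only proteins in check, and when BH3-only proteins occupy them BAX and BAK form pores that release cytochrome c and start the caspase cascade. Neutrophils are short-lived cells whose survival leans on MCL1, a protein with rapid turnover, and on A1, whose genes respond to inflammatory signals.

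In mice the A1 gene was copied several times within a short stretch of chromosome 9. In mm10 coordinates, Bcl2a1d lies on the minus strand at chr9:88723285-88731914, Bcl2a1a on the plus strand at chr9:88956900-88962419 and Bcl2a1b on the plus strand at chr9:89199209-89207827. Of the other members, Mcl1 lies at chr3:95658788-95663176 (plus), Bcl2l1 at chr2:152780668-152831728 (minus), Bcl2l11 at chr2:128126038-128162547 (plus), Bcl2 at chr1:106538178-106714274 (minus), Bax at chr7:45461697-45466898 (minus) and Bak1 at chr17:27019810-27029009 (minus).

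The sequences just upstream of the Bcl2a1 paralogs are shown because these 3 genes had the highest ratios of the family between the libraries. They are RefSeq promoter windows of GRCm38.p6, each ending before the first base of the annotated gene, on the strand of the gene. Capitals mark a match to a loose AP-1 motif (TGANTCA, with N as any base) and, downstream of it, a match to a PU.1 motif (GAGGAAGT). In all 3 windows the N was an A. The 3 windows are chr9:88731915-88732100 for Bcl2a1d, chr9:88956670-88956899 for Bcl2a1a and chr9:89199023-89199208 for Bcl2a1b.
Bcl2a1d: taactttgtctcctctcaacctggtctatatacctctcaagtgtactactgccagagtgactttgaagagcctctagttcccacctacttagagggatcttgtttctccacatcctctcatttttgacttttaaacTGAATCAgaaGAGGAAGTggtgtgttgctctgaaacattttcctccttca
Bcl2a1a: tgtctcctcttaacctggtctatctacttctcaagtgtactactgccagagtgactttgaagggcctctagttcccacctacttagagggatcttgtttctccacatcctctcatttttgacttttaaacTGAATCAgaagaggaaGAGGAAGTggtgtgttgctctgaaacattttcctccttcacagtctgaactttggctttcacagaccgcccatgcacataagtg
Bcl2a1b: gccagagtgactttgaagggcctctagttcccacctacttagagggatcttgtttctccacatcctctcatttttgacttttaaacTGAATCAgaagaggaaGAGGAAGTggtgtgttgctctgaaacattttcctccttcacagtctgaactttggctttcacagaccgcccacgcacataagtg

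The upstream sequences were close copies. Over the aligned bases of the full RefSeq windows of 250 bases, which run past the printed stretches, Bcl2a1a and Bcl2a1b were 99.5% identical, Bcl2a1a and Bcl2a1d 95.2%, and Bcl2a1b and Bcl2a1d 96.1% (206, 250 and 206 aligned bases). In Bcl2a1a and Bcl2a1b 9 bases separated the motifs and in Bcl2a1d 3 bases. Searched on both strands over 32851 RefSeq windows of 250 bases, the AP-1 letters occurred in 6.75% and the PU.1 letters in 2.44%. Among the windows of Mcl1, Bcl2l1, Bcl2, Bcl2l11, Bax and Bak1 the PU.1 letters were found in that of Bak1 and the AP-1 letters in none, and Pmaip1 was not searched. The NF-kB motif (GGG and CC with any 5 bases between), present in 45.8% of all windows, were not found in the windows of the 3 paralogs. A match shows only that the letters are there and says nothing of binding in these cells.

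The paralogs' transcripts were as alike, at 98.2% (Bcl2a1a and Bcl2a1b), 98.8% (Bcl2a1a and Bcl2a1d) and 99.1% (Bcl2a1b and Bcl2a1d). Of all 90-base stretches, 53.0% of the Bcl2a1a transcript, 38.5% of the Bcl2a1b transcript and 38.4% of the Bcl2a1d transcript occurred in no other annotated transcript. Reads that match several paralogs cannot be assigned to one of them, so the split among the 3 genes is uncertain and their sum is the sounder value. Where such reads go uncounted the sum is too low as well. The level, rank and share of Bcl2a1 against the other members may thus be understated, which was not tested. For Mcl1, Bcl2l1 and Bak1 every 90-base stretch was unique.

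In neutrophils of both libraries Mcl1 was by far the most abundant member. Its level was 3412 CPM in 4T1P (8540 UMIs) and 3605 CPM in 4T1M (23724 UMIs), a log2 ratio of 4T1M over 4T1P of 0.08 (0.04 to 0.12). MCL1 transcripts thus differed little between the libraries, and they made up 77.5% of all member UMIs in 4T1P neutrophils and 71.4% in 4T1M neutrophils.

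The Bcl2a1 paralogs were about 2.16-fold higher in the neutrophils of 4T1M. Their summed level was 299 CPM in 4T1P (749 UMIs) and 648 CPM in 4T1M (4261 UMIs), with a log2 ratio of 1.11 (1.0 to 1.23). All 3 paralogs had a ratio on the same side. Bcl2a1b, the most counted of them, was at 221 CPM in 4T1P and 459.6 CPM in 4T1M (log2 ratio 1.05, 0.92 to 1.19). Bcl2a1a was at 57.5 and 143 CPM (1.32, 1.06 to 1.58). Bcl2a1d was at 20.4 and 44.7 CPM (1.13, 0.70 to 1.59), with 51 and 294 UMIs behind these levels. The paralogs kept similar proportions, Bcl2a1b taking 74.0% of the sum in 4T1P and 71.0% in 4T1M and Bcl2a1a 19.2% and 22.1%.

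The remaining survival genes showed no such difference. Bcl2l1 was at 156 CPM in 4T1P neutrophils and 154 CPM in 4T1M neutrophils (log2 ratio -0.02, -0.19 to 0.16). Bcl2, the founding member, was barely detected in neutrophils, at 4.39 CPM from 11 UMIs and 4.26 CPM from 28 UMIs, and at this depth a difference of up to about 2-fold could not be seen (log2 ratio -0.05, -1.10 to 1.11).

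Among the death genes of neutrophils, BIM transcripts dominated. Bcl2l11 was at 385 CPM in 4T1P and 448 CPM in 4T1M (log2 ratio 0.22, 0.11 to 0.33) and supplied 72.2% and 70.6% of the death UMIs. Pmaip1, whose protein binds MCL1 and A1, was at 61.5 and 82.1 CPM (0.42, 0.15 to 0.68). The effectors were low. Bax was at 72.3 and 87.1 CPM (0.27, 0.02 to 0.52), and Bak1 was at 14.4 and 17.8 CPM (0.31, -0.24 to 0.89), an interval that spans no difference. The ratios of the death genes thus lay between those of Mcl1 and of the Bcl2a1 paralogs, though the intervals of Bcl2l11, Bax and Bak1 overlapped that of Mcl1 and the interval of Bak1 that of Bcl2a1d.

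Ranked by level, 4T1P neutrophils ran from Mcl1 through Bcl2l11, Bcl2a1b, Bcl2l1, Bax, Pmaip1, Bcl2a1a, Bcl2a1d and Bak1 to Bcl2. In 4T1M neutrophils Bcl2a1b stood before Bcl2l11 and Bcl2a1a before Bax. The counting intervals of neighbors overlapped for Bax, Pmaip1 and Bcl2a1a and for Bcl2a1d and Bak1 in 4T1P. In 4T1M they overlapped for Bcl2a1b and Bcl2l11, for Bcl2l1 and Bcl2a1a, and for Bax and Pmaip1.

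**Figure D1:**
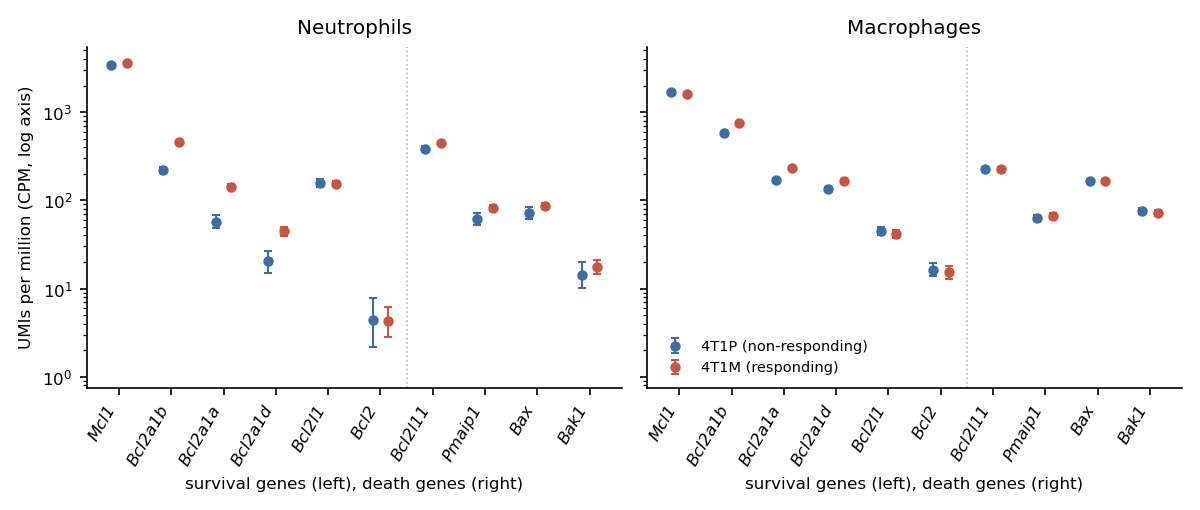
Level of each Bcl2 family member in neutrophils and macrophages, in CPM on a log axis, with 1 point for 4T1P and 1 for 4T1M and bars for the 95% Poisson interval. Mcl1 lies highest in every class and library, at 3412 and 3605 CPM in neutrophils and 1677 and 1599.9 CPM in macrophages, and Bcl2 lies lowest.

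Counted against all genes, 3 of the 9 members with at least 50 UMIs in the 2 neutrophil sums were higher in 4T1M by 1.5-fold or more, where 9.31% of 6465 genes were, and 0 were lower, where 3.25% of genes were. The 3 were the Bcl2a1 paralogs, which share reads and are not 3 separate observations. Bcl2 was under the count limit. The median log2 ratio was 0.29 over the 9 members and 0.04 over all 6465 genes, and 8 of the 9 members had a ratio above 0, as did 54.8% of all genes. Since these ratios were known when the members were picked, nothing is read from the counts.

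Macrophages carried a different makeup of the family. The Bcl2a1 sum was 882 CPM in 4T1P (7733 UMIs) and 1147 CPM in 4T1M (10721 UMIs), a 1.30-fold ratio (log2 0.38, 0.34 to 0.42). Mcl1 was at 1677 and 1599.9 CPM (-0.07, -0.10 to -0.04). Both A1 and MCL1 transcripts were thus plentiful in macrophages, while Bcl2l1, at 44.6 and 41.2 CPM, and Bcl2, at 16.4 and 15.3 CPM, were low.

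Each paralog was above 0 in macrophages as well. Bcl2a1a was at 172 and 233 CPM (log2 ratio 0.44, 0.34 to 0.54), Bcl2a1b at 576 and 749.7 CPM (0.38, 0.33 to 0.43) and Bcl2a1d at 135 and 165 CPM (0.29, 0.18 to 0.40). Bcl2a1d held 15.3% and 14.4% of the paralog UMIs in macrophages, against 6.81% and 6.90% in neutrophils.

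No death gene of macrophages differed between the libraries beyond counting error. Bcl2l11 was at 227 and 226 CPM (log2 ratio -0.00, -0.09 to 0.09), and Bax was at 167 and 165 CPM (-0.03, -0.13 to 0.08). Pmaip1 was at 63.1 and 65.9 CPM (0.06, -0.10 to 0.23), and Bak1 was at 75.1 and 71.7 CPM (-0.07, -0.22 to 0.09). In macrophages 0 of 10 members were higher by 1.5-fold or more and 0 were lower, where 3.94% and 4.05% of 9874 genes were. The members' median log2 ratio was -0.01 and that of all genes -0.03.

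**Figure D2:**
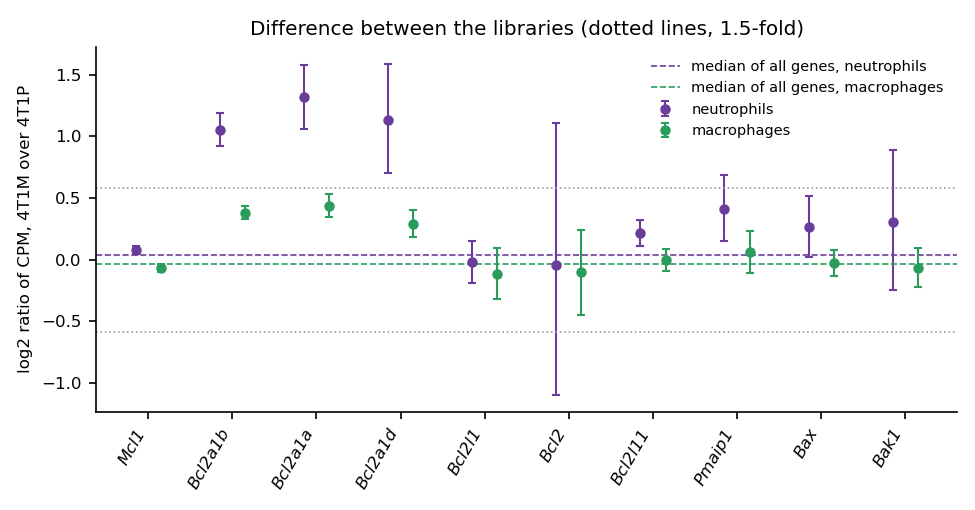
Log2 ratio of 4T1M over 4T1P for each member in neutrophils and macrophages, with bars for the 95% counting interval, dashed lines at the median of all genes and dotted lines at 1.5-fold in either direction. In neutrophils the Bcl2a1 paralogs lie between 1.05 and 1.32 and the other members between -0.05 and 0.42, and in macrophages the paralogs lie between 0.29 and 0.44.

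The balance of survival to death transcripts was nearly the same in the neutrophils of both libraries. Survival genes supplied 87.9% of member UMIs in 4T1P and 87.4% in 4T1M, a difference of -0.48 percentage points (-1.19 to 0.24). Mcl1 made up most member UMIs, so the Bcl2a1 paralogs could move this share only a little. As shares of all neutrophil UMIs both sides were higher in 4T1M, the survival sum by a log2 ratio of 0.19 (0.16 to 0.22, from 3872 to 4412 CPM) and the death sum by 0.25 (0.16 to 0.34, from 533 to 635 CPM). Without the Bcl2a1 paralogs the survival share was 87.0% and 85.6%, a difference of -1.45 points (-2.22 to -0.67).

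What differed was the makeup of the survival side. Bcl2a1 paralogs supplied 7.73% of survival UMIs in 4T1P neutrophils and 14.7% in 4T1M neutrophils, 6.95 points more (6.27 to 7.62). Mcl1 supplied 88.1% and 81.7%. In macrophages the Bcl2a1 share of survival UMIs was 33.7% in 4T1P and 40.9% in 4T1M, 7.26 points more (6.40 to 8.12), and the Mcl1 share was 64.0% and 57.1%. The survival share of macrophages was 83.1% and 84.1%, a difference of 1.03 points (0.43 to 1.63). It was 76.6% and 75.8% without the paralogs, where the difference had the other sign (-0.74, -1.58 to 0.09).

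**Figure D3:**
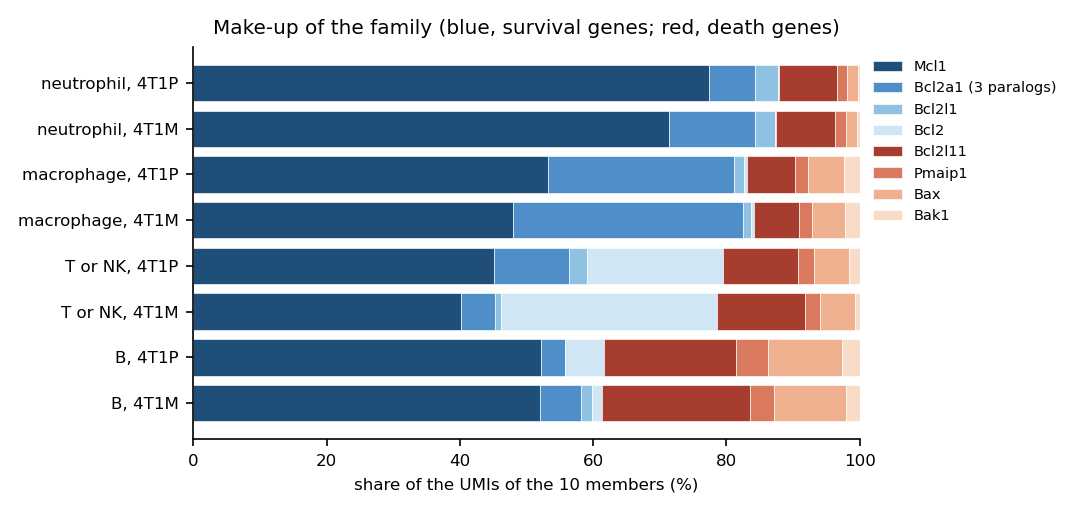
Share of all Bcl2 family UMIs taken by each member, with the 3 Bcl2a1 paralogs as 1 segment, in neutrophils, macrophages, T or NK cells and B cells of 4T1P and 4T1M, in percent. Mcl1 takes 77.5% and 71.4% in neutrophils and 53.2% and 48.0% in macrophages, and Bcl2a1 paralogs take more of the total in 4T1M in both of these classes.

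Neutrophils and macrophages had different levels of most members, in the same direction in both libraries on the CPM scale except for Pmaip1. Mcl1 was higher in neutrophils (log2 ratio of neutrophils over macrophages 1.02 in 4T1P and 1.17 in 4T1M), and so was Bcl2l1, 3.50-fold and 3.75-fold. Bcl2l11 was also higher in neutrophils (0.76 and 0.99). The effectors were lower in neutrophils, Bax by log2 ratios of -1.21 and -0.92 and Bak1 by -2.38 and -2.01, so that Bax and Bak1 together made up 16.3% and 16.5% of death UMIs in neutrophils and 45.6% and 44.7% in macrophages. Bcl2 was lower too (-1.90 and -1.85), and Pmaip1 was similar on the CPM scale (-0.04 and 0.32).

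The Bcl2a1 sum was lower in neutrophils than in macrophages on this scale, by a log2 ratio of -1.56 in 4T1P (-1.67 to -1.45) and -0.83 in 4T1M (-0.88 to -0.77). These ratios depend on the scale. The median of all genes was -1.14 in 4T1P and -1.0 in 4T1M. Scaling by TMM moved every ratio up by 0.98 and 0.89, and scaling by DESeq2 size factors by 1.14 and 1.01. The Bcl2a1 sum was then still lower in 4T1P neutrophils (-0.58 and -0.42) but slightly higher in 4T1M neutrophils (0.07 and 0.18). Bcl2a1a and Bcl2a1b in 4T1M and Pmaip1 in 4T1P also changed sign under both scalings, and Bax in 4T1M under DESeq2. By DESeq2 Pmaip1 was higher in neutrophils, at 1.10 in 4T1P and 1.32 in 4T1M. Mcl1, Bcl2l1 and Bcl2l11 stayed higher in neutrophils and Bcl2a1d, Bcl2 and Bak1 lower under every scaling run.

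With 2-fold as the limit, 2 members, Mcl1 and Bcl2l1, were higher in 4T1P neutrophils than macrophages, where 10.3% of genes were, and 6 were lower, where 53% were. In 4T1M the same 2 members were higher, where 11% of genes were, and 3 were lower, where 50.1% were. The members lower in both libraries were Bcl2a1d, Bcl2 and Bak1. The classes were cut on measured genes of the same cells, so these are descriptions, though no member was used to cut them.

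Transcripts carried over between classes could add to these values. C1q and Apoe transcripts in neutrophils stood at 2.53% of their macrophage level in 4T1P and at 2.64% in 4T1M. At the same percentages macrophage RNA would supply 22.3 of the 299 CPM of Bcl2a1 in 4T1P neutrophils and 30.3 of the 648 CPM in 4T1M neutrophils. This arithmetic takes Bcl2a1 to be carried over in the same proportion as C1q and Apoe. The class rule itself limits C1q and Apoe in neutrophils, and barcodes above that limit were left out. These percentages are thus capped by the rule and may be too low. The part of carry-over in the levels and in the gap between the libraries was not tested. For Bak1 the same arithmetic gave 13.2% and 10.7% of the neutrophil level. In the other direction, Mcl1 carried from neutrophils would make up 0.697% of the macrophage level in 4T1P and 1.88% in 4T1M. That estimate rests on S100a8 and S100a9, which the rule limits in macrophages, so it is capped in the same way.

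Markers of other cells were scarce in neutrophils, for macrophage markers in part by the class rule itself. The 10 macrophage markers, all detected, summed to 656 CPM in 4T1P and 722 CPM in 4T1M. Of this, 372 and 415 CPM were C1qa, C1qb, C1qc and Apoe, which the rule limits in neutrophils. T or NK markers summed to 30.0 and 24.2 CPM. Of this, 29.2 and 22.5 CPM were Cd3d, while Cd3g was at 0 in both. Epithelial markers, which 4T1 tumor cells express, summed to 69.9 CPM in 4T1P (4 of 4 detected) and 12.6 CPM in 4T1M (3 of 4 detected). In macrophages the 8 neutrophil markers, all detected, summed to 714 and 1321 CPM. Of this, 544 and 1081 CPM were S100a8 and S100a9, which the rule limits in macrophages. Median mitochondrial share was 2.76% in 4T1P neutrophils and 1.81% in 4T1M neutrophils. The part of these markers and shares in the difference in Bcl2a1 was not tested.

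The difference in Bcl2a1 was also seen cell by cell. After each cell was thinned to 1000 UMIs, a Bcl2a1 UMI was found in 122 of 612 neutrophils of 4T1P, or 19.9% (16.8 to 23.3), and in 569 of 1682 neutrophils of 4T1M, or 33.8% (31.6 to 36.1). The difference was 13.9 points (9.82 to 17.8). 4 shallower neutrophils of 4T1M were left out and none of 4T1P, and the shares before thinning were 39.4% and 56.2%. As a low reference, 1 of 31 B cells of 4T1P and 1 of 26 of 4T1M held a Bcl2a1 UMI at 1000 UMIs, 3.23% and 3.85%, where the median depth before thinning was 4419 and 5869 UMIs.

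Most Bcl2a1-positive neutrophils held a single UMI at this depth. In 4T1P 13.7% of neutrophils had 1 UMI, 3.10% had 2 and 3.10% had 3 or more, and in 4T1M these shares were 17.9%, 8.50% and 7.43%. The highest cell had 8 UMIs in 4T1P and 11 in 4T1M. The top 10% of cells held 69.4% of the Bcl2a1 UMIs in 4T1P and 54.4% in 4T1M, a share that also rises where the mean count is low. The variance of the Bcl2a1 counts was 2.14 times their mean in 4T1P and 2.33 times in 4T1M. Bcl2a1 thus varied among neutrophils by more than counting error in both libraries.

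Mcl1 was found in far more cells. It was found in 93.8% of thinned 4T1P neutrophils and 95.5% of 4T1M neutrophils, with a median of 3 UMIs per cell in both. The top 10% of cells held 25.2% and 23.7% of its UMIs, at a higher mean count than that of Bcl2a1. The variance of its counts was 1.91 and 1.77 times their mean. The mean per thinned cell was 3.81 UMIs in 4T1P and 3.91 in 4T1M. A separate random draw to the same depth gave an Mcl1 log2 ratio of -0.03, against 0.08 over all UMIs. The sign of this small difference thus changed with the draw. Cells without any survival UMI made up 4.58% in 4T1P (3.06 to 6.54) and 2.79% in 4T1M (2.06 to 3.70), intervals that overlap.

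**Figure D4:**
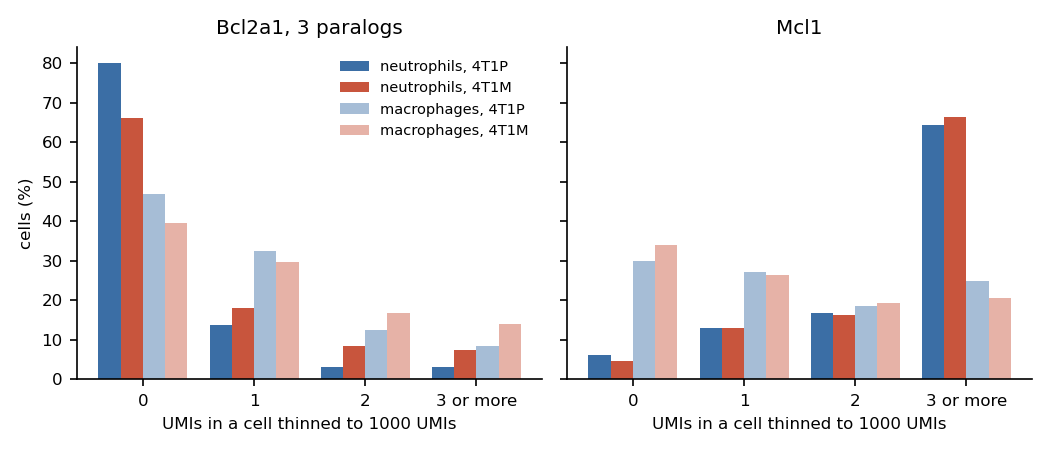
Share of cells, in percent, with 0, 1, 2 or at least 3 UMIs of summed Bcl2a1 and of Mcl1 after thinning to 1000 UMIs, by class and library. For Bcl2a1 in neutrophils 80.1% of 4T1P cells and 66.2% of 4T1M cells have 0 UMIs, while for Mcl1 64.2% and 66.3% have at least 3.

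Death transcripts were shared between cells with and without Bcl2a1. At 1000 UMIs a death gene UMI was found in 40.4% of 4T1P neutrophils and 46.0% of 4T1M neutrophils. A Bcl2a1 UMI together with a death gene UMI was found in 9.31% and 16.6%, and a Bcl2a1 UMI without one in 10.6% and 17.2%. Bcl2l11, with or without another death gene, was found in 31.2% and 34.1%, and Pmaip1 in 4.90% and 8.98%.

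In macrophages at 1000 UMIs Bcl2a1 was found in 53.2% of 772 cells of 4T1P and 60.4% of 939 cells of 4T1M, after 26 and 37 shallower cells were left out (85.2% and 88.7% before thinning). Mcl1 was found in 70.2% and 66.1%, so that 29.8% and 33.9% of thinned macrophages had no Mcl1 UMI, compared with 6.21% of 4T1P neutrophils. A death gene was found in 38.2% of macrophages of both libraries.

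The ratio between libraries was looked at within bands of depth. In neutrophils under 2000 UMIs, between 2000 and 4000 UMIs, and above 4000 UMIs the Bcl2a1 sum was at 149, 374 and 262 CPM in 4T1P and 373, 763 and 611 CPM in 4T1M, giving log2 ratios of 1.32, 1.03 and 1.22. The survival sum had ratios of 0.02, 0.06 and 0.34 in the same bands and the death sum 0.27, 0.18 and 0.34. The Mcl1 ratios in the same bands were -0.01, -0.06 and 0.23. Bcl2a1 was thus higher in 4T1M in each band, whereas the Mcl1 ratio was above 0 in the deepest band alone.

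Bcl2a1 levels just inside and just outside the limit of the neutrophil class were alike. Cells with 1.5% to 2% of UMIs in S100a8 and S100a9 had 535 CPM of Bcl2a1 in 4T1P (31 cells) and 1167 in 4T1M (106 cells), and those with 1% to 1.5% had 498 CPM (34 cells) and 1058 CPM (134 cells). Both ranges lay above the 299 and 648 CPM of all neutrophils in 4T1P and 4T1M. The Bcl2a1 level of the class thus depends on where this limit is set. Mcl1 was at 3236 and 3364 CPM inside the limit and at 3974 and 3606 CPM outside it. At the limit of the macrophage class, cells with 0.3% to 0.4% of UMIs in the macrophage genes had 785 CPM of Bcl2a1 in 4T1P (20 cells) and 1088 in 4T1M (61 cells), and those with 0.2% to 0.3% had 569.99 CPM (36 cells) and 715 CPM (81 cells).

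Neutrophils were then ordered by the share of UMIs in 3 lists of genes, and the top 25% over both libraries was set against the rest. NF-kB genes such as Nfkbia, Tnfaip3 and Il1a are induced when myeloid cells are activated, granule genes such as Camp, Ltf and Ngp are expressed in immature neutrophils, and Ifit1, Isg15 and Rsad2 are among the genes that interferon induces. Cells high for NF-kB genes numbered 78 in 4T1P and 497 in 4T1M, those high for granule genes 161 and 414, and those high for interferon genes 112 and 463. Each is a range of a score and not a cell type, and 39 and 194 cells lay within 10% of the limit of the NF-kB share.

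The Bcl2a1 sum went with the NF-kB list in both libraries. It was at 848 CPM in NF-kB-high neutrophils and 236 CPM in the rest in 4T1P (log2 ratio 1.84, 1.61 to 2.07), and at 1141 and 472 CPM in 4T1M (1.27, 1.19 to 1.36). Mcl1 differed less, at 4685 and 3266 CPM in 4T1P (0.52) and 3960.1 and 3479 CPM in 4T1M (0.19). Within NF-kB-high cells the ratio of 4T1M over 4T1P for Bcl2a1 was 0.43 (0.23 to 0.64), and within the rest it was 1.0 (0.86 to 1.14).

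BIM transcripts were also higher in NF-kB-high neutrophils. Bcl2l11 was at 665 and 353 CPM in 4T1P (log2 ratio 0.92) and 623 and 386 CPM in 4T1M (0.69), and Bax was at 148 and 63.7 CPM (1.22) and 129 and 72.2 CPM (0.84). Bcl2l1 did not share this, at 125 and 159.8 CPM in 4T1P (-0.36, -0.93 to 0.16) and 135 and 161 CPM in 4T1M (-0.26, -0.48 to -0.05). The survival share was accordingly a little lower in NF-kB-high cells, 86.2% against 88.2% in 4T1P and 85.6% against 88.3% in 4T1M.

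Granule-high neutrophils carried less of most members. The Bcl2a1 sum was at 191 CPM against 375 CPM in the rest in 4T1P (log2 ratio -0.97) and 411 against 776 CPM in 4T1M (-0.92). Mcl1 was at 2517 against 4037 CPM (-0.68) and 2959.9 against 3955 CPM (-0.42), and the death sum was at 359 against 655 CPM (-0.87) and 479 against 719 CPM (-0.59). These cells were deeper, with medians of 4210.0 and 4156 UMIs against 2873 and 2700.0 in the rest. The library ratio of Bcl2a1 was 1.10 in granule-high cells and 1.05 in the others.

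The study marks its neutrophil state by interferon response and by NF-kB and TNF signaling, so the interferon list covers only part of it. Interferon-high neutrophils differed little in Bcl2a1 from the rest. The sum was at 347 against 291 CPM in 4T1P (log2 ratio 0.26, -0.03 to 0.53) and 665 against 642 CPM in 4T1M (0.05, -0.05 to 0.15). Mcl1 was somewhat higher, at 4141 against 3284 CPM (0.33) and 4096 against 3438 CPM (0.25). Between libraries the Bcl2a1 ratio was 0.94 in interferon-high cells and 1.14 in the rest. Neutrophils with a Ly6e UMI at 1000 UMIs, 33 in 4T1P and 224 in 4T1M, had 280 CPM of Bcl2a1 against 301 in cells without one in 4T1P, and 834 against 617 CPM in 4T1M (0.43).

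**Figure D5:**
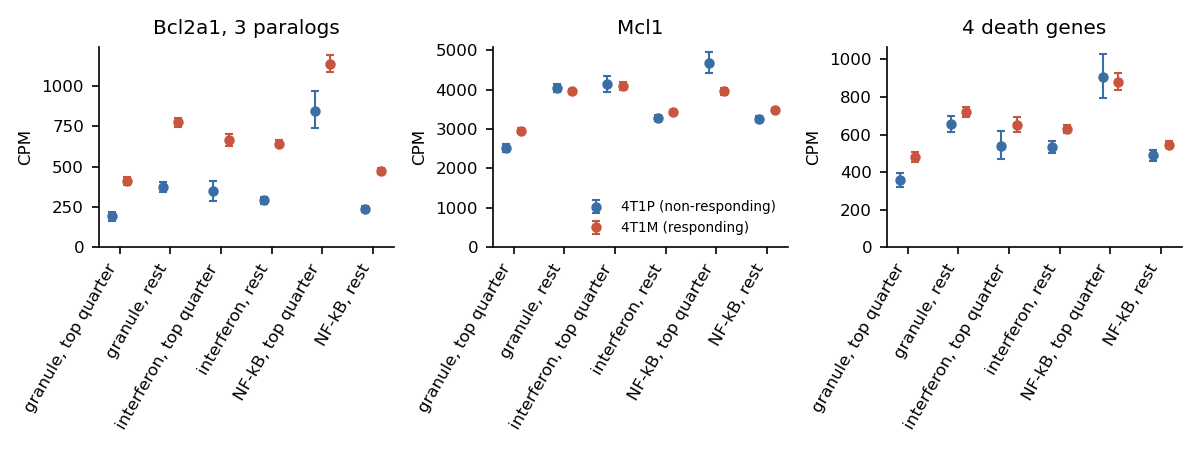
Level of summed Bcl2a1, of Mcl1 and of the 4 death genes together, in CPM, in neutrophils in the top 25% by the granule, interferon or NF-kB share against the rest, for 4T1P and 4T1M, with 95% Poisson intervals. For Bcl2a1 the widest gap is in the NF-kB list, 848 against 236 CPM in 4T1P and 1141 against 472 CPM in 4T1M.

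In macrophages the NF-kB list was followed by both genes. The Bcl2a1 sum was at 1150.1 CPM in NF-kB-high macrophages and 772 CPM in the rest in 4T1P (log2 ratio 0.57), and at 1317 and 1070.3 CPM in 4T1M (0.30). Mcl1 was at 2097 and 1506 CPM (0.48) and at 1968 and 1432 CPM (0.46). The Bcl2a1 ratio between libraries was 0.20 in NF-kB-high macrophages and 0.47 in the rest.

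Across single neutrophils thinned to 1000 UMIs, the genes most like summed Bcl2a1 were inflammatory ligands and a chemokine-binding receptor. Of 1062 genes, the highest Pearson r in 4T1P and 4T1M was found for Il1a, encoding interleukin-1 alpha (0.30 and 0.35), Cxcl2, a neutrophil-attracting chemokine (0.25 and 0.29), Ccrl2 (0.23 and 0.28), Tnf (0.31 and 0.22) and Ccl3 (0.21 and 0.26). Il1a and Tnf are also in the NF-kB list above. S100a8 was the least like it (-0.20 and -0.25). For Mcl1 the leading gene was Cebpb, a myeloid transcription factor (0.26 and 0.18), followed by Malat1, Srgn, Ccnl1 and Isg15. All values are weak correlations over 612 and 1682 cells that share library and sparse counts, and are given as a description. In macrophages Bcl2a1 was most like Il1b (0.24 and 0.25), with Il1a, Ccl4, Ctsc and Sod2 next, and Mcl1 was most like Cxcl2 (0.38 and 0.31), with Btg1, Nfkbia, Klf6 and Junb next.

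The wider apoptosis machinery was read from 3 lists. Of 16 other Bcl2 family genes, 7 reached 50 UMIs in neutrophils, with a median log2 ratio of 0.31 against 0.04 over all 6465 genes. Among the 7, where 9.31% of all genes were higher in 4T1M by 1.5-fold or more, 1 gene was. It was Bcl2a1c, a further A1 copy, with 7 UMIs in 4T1P and 66 in 4T1M (2.80 and 10.0 CPM; 1.84, 0.72 to 3.21). Bnip3, a mitochondrial BH3-like gene and the most abundant of the list, was at 538 and 586 CPM.

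Of 15 caspases and partners, 7 reached the limit, with a median of 0.17. Cycs, encoding cytochrome c, was at 41.6 CPM in 4T1P and 35.6 CPM in 4T1M (log2 ratio -0.22, -0.56 to 0.12). Of the 9 genes of the third list (Xiap, Cflar and genes named Birc and Naip), 7 reached the limit, with a median of 0.25. Of these, 2 were higher, where 9.31% of all genes were, and 1 lower, where 3.25% were. Whether each acts on caspases was not examined, and nothing is read from these counts. Cflar, whose protein cFLIP blocks caspase 8 and whose gene is a known NF-kB target, was at 322 CPM in 4T1P and 569.6 CPM in 4T1M (0.82, 0.71 to 0.94). Naip2 was at 7.19 and 14.9 CPM (1.05, 0.32 to 1.86), and Birc5, a gene of dividing cells, was at 10.8 and 6.99 CPM (-0.63, -1.34 to 0.12). In macrophages none of the 9, 15 and 9 genes that reached the limit was past 1.5-fold in either direction, and the medians were -0.02, -0.03 and 0.14. Over all 9874 genes 3.94% were higher and 4.05% lower, with a median of -0.03.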

How the data were processed

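The 2 libraries of GR1+ cells, 1 per group, were sequenced on the 10x Genomics system. Per the labels, the deposited UMI counts were made with Cell Ranger 4.0.0 and mm10, the study's methods name a different Cell Ranger version, and which end of the transcript the kit reads is not given in the sources used here. The counts were deposited raw, per gene and barcode. Barcodes of 500 to 5000 genes and at most 10% mitochondrial UMIs were retained, and classes were cut by the limits given in the report, with T or NK and B cells at 0.1% of UMIs in their markers. Barcodes with at least 1.5% of UMIs in S100a8 and S100a9 and at least 0.5% in the C1q genes and Apoe (11 in 4T1P, 53 in 4T1M) met neither limit and were left out. No doublet caller was run. UMIs were summed per class and library with Python 3.11.15, numpy 2.4.6, scipy 1.17.1 and pandas 2.3.3, and log2 ratios were taken without a pseudocount for the members and with 0.5 UMIs added for counts over all genes of at least 50 UMIs. Cells were thinned to 1000 UMIs without replacement, and the ratios between thinned sums came from a separate random draw from the shares of cells. TMM (edgeR 4.0.16) and DESeq2 1.42.0 size factors in R 4.3.3 were used as other scalings only, and no test was run. The interval was tried on simulated data for the neutrophil ratio between libraries. Of 6465 genes, 95.4% held the true ratio within it, as did 194 of 200 genes given a known change. This shows its coverage of the simulated counts only, and not of the variation between mice, tumors and sorts. All members were named, and of the pathway lists the genes past 1.5-fold and the most abundant, except for items that are not reported here. The members, lists and limits were chosen with earlier results of these data known. Samples were grouped by their titles. Other class limits, depths, scalings and gene filters were tried. Promoter windows came from RefSeq GRCm38.p6, and gene positions and transcripts from GENCODE M21.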

Additional observations from a re-analysis of the deposited data

Results flagged for a closer look

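Mcl1 had log2 ratios of 4T1M over 4T1P of opposite sign in the 2 myeloid classes, 0.080 in neutrophils and -0.068 in macrophages. The difference was not tested, and the neutrophil value was -0.026 in a random draw to 1000 UMIs per cell. In another draw to that depth the mean was 3.81 UMIs per neutrophil in 4T1P and 3.91 in 4T1M.

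Barcodes that the comparisons did not use also held family transcripts. In barcodes with 500 to 5000 genes and above 10% mitochondrial UMIs, Mcl1 was at 1658 CPM in 4T1P and 2086 CPM in 4T1M, and the Bcl2a1 sum was at 304 and 521 CPM. In retained barcodes in no class Mcl1 was at 2365 CPM in 4T1P and 2630.5 CPM in 4T1M, and the Bcl2a1 sum was at 439.8 and 989.9 CPM. Those barcodes held neutrophil markers at 4690 and 6296 CPM and macrophage markers at 1369 and 1079 CPM.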

How the results depend on the processing

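The Bcl2a1 ratio between libraries in neutrophils lay between 1.01 and 1.13 under its 10 alternatives, and the counts of members past 1.5-fold stayed at 3 and 0. In macrophages the ratio was 0.23 with a mitochondrial limit of 5%, 0.28 thinned to 1000 UMIs and 0.50 with 1000 to 4000 genes per cell. Neutrophils over macrophages, Bcl2a1 in 4T1P was -0.58 by TMM, -0.42 by DESeq2 size factors, -1.67 with 3% S100a8 and S100a9, -1.68 thinned, -1.30 with 1000 to 4000 genes, -1.38 for Bcl2a1b alone and -1.33 with totals without S100a8, S100a9 and mitochondrial genes. In 4T1M it was 0.067 by TMM, 0.18 by DESeq2, -0.99 with 3% S100a8 and S100a9, -0.88 in purer classes, -0.71 for Bcl2a1b alone and -0.66 with those totals. There Bcl2a1a was 0.19 and 0.31, Bcl2a1b 0.19 and 0.30 (TMM and DESeq2) and Bax 0.091 (DESeq2). The difference in survival share in neutrophils was -1.45 points without the paralogs and 0.25 with barcodes in no class, and in macrophages 1.72 at 5% mitochondrial UMIs and -0.74 without the paralogs. At 2000 UMIs per cell the gap in cells with Bcl2a1 was 18.0 points. The NF-kB ratio of Bcl2a1 in 4T1P was 1.61 with 3% S100a8 and S100a9, 2.13 with 1000 to 4000 genes and 1.28 thinned. In the random draw used for thinned ratios, Mcl1 in neutrophils was -0.026 and Bax -0.13. In the draw used for shares of cells both means per cell were higher in 4T1M. For 4T1P and 4T1M they were 3.81 and 3.91 UMIs for Mcl1 and 0.096 and 0.105 for Bax. For single members, 143 of 170 values between libraries stayed within the counting interval of the main value, as against 78 of 160 between classes. Where that interval excluded 0, 2 values between libraries and 5 between classes changed sign. The 2 between libraries were the thinned Mcl1 and Bax of neutrophils, whose sign depended on the draw. Members whose interval spanned 0 changed sign under further alternatives. Between libraries, Bak1 in neutrophils fell as low as -0.21 and Pmaip1 in macrophages as low as -0.19. The barcodes in no class, the other totals, the depth bands, and the score ranges of macrophages were chosen after seeing the data. Apart from the scalings, whose shift is given above, the cause was not tested. No paired analysis was possible because each group had 1 library, and for the same reason none could be left out. Depth limits Bcl2, Bak1 and Bcl2a1d in neutrophils.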

Other observations

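The small lymphocyte classes carried another makeup of the family. In T or NK cells (73 in 4T1P, 91 in 4T1M) Bcl2 was at 390 and 678 CPM (log2 ratio 0.80, 0.53 to 1.06) and supplied 20.4% and 32.3% of member UMIs, whereas in neutrophils it was near 4 CPM. Mcl1 was at 865 and 841 CPM. The Bcl2a1 sum was lower in 4T1M there, at 217 and 108 CPM from 103 and 55 UMIs (-1.01, -1.51 to -0.52), which is the opposite side from neutrophils and macrophages. The difference between classes was not tested. Bcl2a1a, with 1 and 0 UMIs, was nearly missing from T or NK cells, and Bcl2a1b supplied 68.0% and 83.6% of their paralog UMIs. The survival share of these cells was 79.4% and 78.5%.

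B cells (31 and 26) had Mcl1 at 603 and 627 CPM and a Bcl2a1 sum of 43.1 and 74.5 CPM from 7 and 12 UMIs. Their survival share was the lowest of the classes, at 61.7% in 4T1P and 61.3% in 4T1M.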
